A study of Mus musculus with 9 samples.

Results

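The collagen genes of D2.0R cells were described in 9 poly(A) RNA-seq libraries. D2.0R (also written D2.OR) is a mouse mammary gland adenocarcinoma line, used in this series for work on natural killer cells and dormant breast cancer. Members were all rows of the gene table whose symbol is Col, a number, a and a number, which took 44 of 55487 genes. They fall into 9 fibrillar genes (types 1, 2, 3, 5 and 11), 6 basement membrane genes (type 4) and 29 other genes. All libraries share the line and the stated culture conditions. The cells were grown in DMEM with 10% FBS, loaded with CellTrace Far Red (CTFR), a dye thinned out by division, held for a week in 2% FBS and sorted into CTFR+ (quiescent) and CTFR- (proliferative) cells. The common sample description names CTFR-positive, bulk and CTFR-negative samples, numbered 1 to 3 each, and ties no library to a kind. Libraries are therefore named by title number, from 1 to 9, and no title number is taken for a sorted fraction. No source used here says whether cultures were separate.

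Collagens are secreted trimers whose chains share a Gly-X-Y repeat that folds into a triple helix. Fibrillar collagens make the tensile fibres of stroma, type 4 makes the sheet under epithelia and vessels, and the rest sit on fibrils, form beaded filaments or networks, anchor the epidermis or span membranes. Many trimers need partner chains in fixed proportions. In the normal mammary gland the fibrils come largely from stromal fibroblasts, while epithelial tumour lines differ in how much collagen they make.

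Library totals ran from 18732737 to 41243036 estimated counts, and 3 counts corresponded to 0.0754 CPM (counts scaled to a common library size) in library 7 and to 0.160 CPM in library 9. CPM values were scaled by TMM, a trimmed mean that levels library composition. Of 8 fibroblast markers, 3 (Pdgfra, Pdgfrb and Fap) had a median of at least 1 CPM, whereas Dcn, Lum, Dpt, Thy1 and Pdpn reached at most 0.585 CPM. Among 5 luminal epithelial markers Krt8, Krt18 and Cdh1 were present, while Epcam and Krt19 reached at most 0.224 and 0.0698 CPM, so these defining markers of the labelled epithelial tumour were near 0. The 4 endothelial markers summed to 0.304 to 0.558 CPM and, of the 4 leukocyte markers, Cd68 alone had a median of at least 1 CPM.

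Gene structure differed between the classes taken whole, although single members overlapped. In the coding transcript of each gene, 45.3% of the 528 coding exons of the fibrillar genes were exactly 54 bases long, against 4.05% of 296 in type 4, 18.5% of 1181 in the other members and 0.674% of all protein-coding genes. Exons whose length is a multiple of 9 bases, the length that encodes a Gly-X-Y unit, made up 81.2%, 45.9%, 57.1% and 14.5%. Col24a1 and Col27a1, which the rule counts among the others although they are fibrillar by structure, had 55.0% and 54.1% exons of 54 bases. Col22a1, Col9a2 and Col9a3, also among the others, had 44.4%, 43.8% and 43.8%, within the 41.2% to 47.1% of single fibrillar genes. Col10a1, Col8a1 and Col8a2, whose short helices lie in a few large exons, had none. Collagen genes lay on 15 chromosomes, with 7 on chromosome 1. Several collagen genes are neighbours: Col6a2 and Col6a1 are 85.2 kb apart on chromosome 10, Col3a1 and Col5a2 24.6 kb apart on chromosome 1, and the type 4 genes sit in head-to-head pairs.

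A handful of genes carried nearly all collagen RNA. The 8 members with most counts held 93.4% of the collagen counts, and the first 12 held 99.0%. Per kilobase of the coding transcript, Col6a1, a chain of the beaded filaments of type VI collagen, stood at a median of 835 CPM per kb, rank 33 of the 22550 genes with a coding transcript. Col6a2, its partner, followed at 642 CPM per kb and Col1a1, the main chain of fibrillar type I collagen, at 490. With all exons of a gene merged, Col6a2 (304 CPM per kb) came after Col1a1 (443) instead. Next came Col18a1, a basement membrane proteoglycan that is the source of endostatin, at 154 CPM per kb, and the fibrillar genes Col5a1, Col5a3 and Col3a1 at 144, 132 and 116. Col12a1, a fibril-associated collagen, had 61.4 CPM per kb and Col4a5 60.4. With merged exons Col5a1 (142 CPM per kb) came before Col18a1 (122), Col4a5 (58.8) before Col12a1 (46.4), and Col3a1 stood at 66.0.

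**Figure D1:**
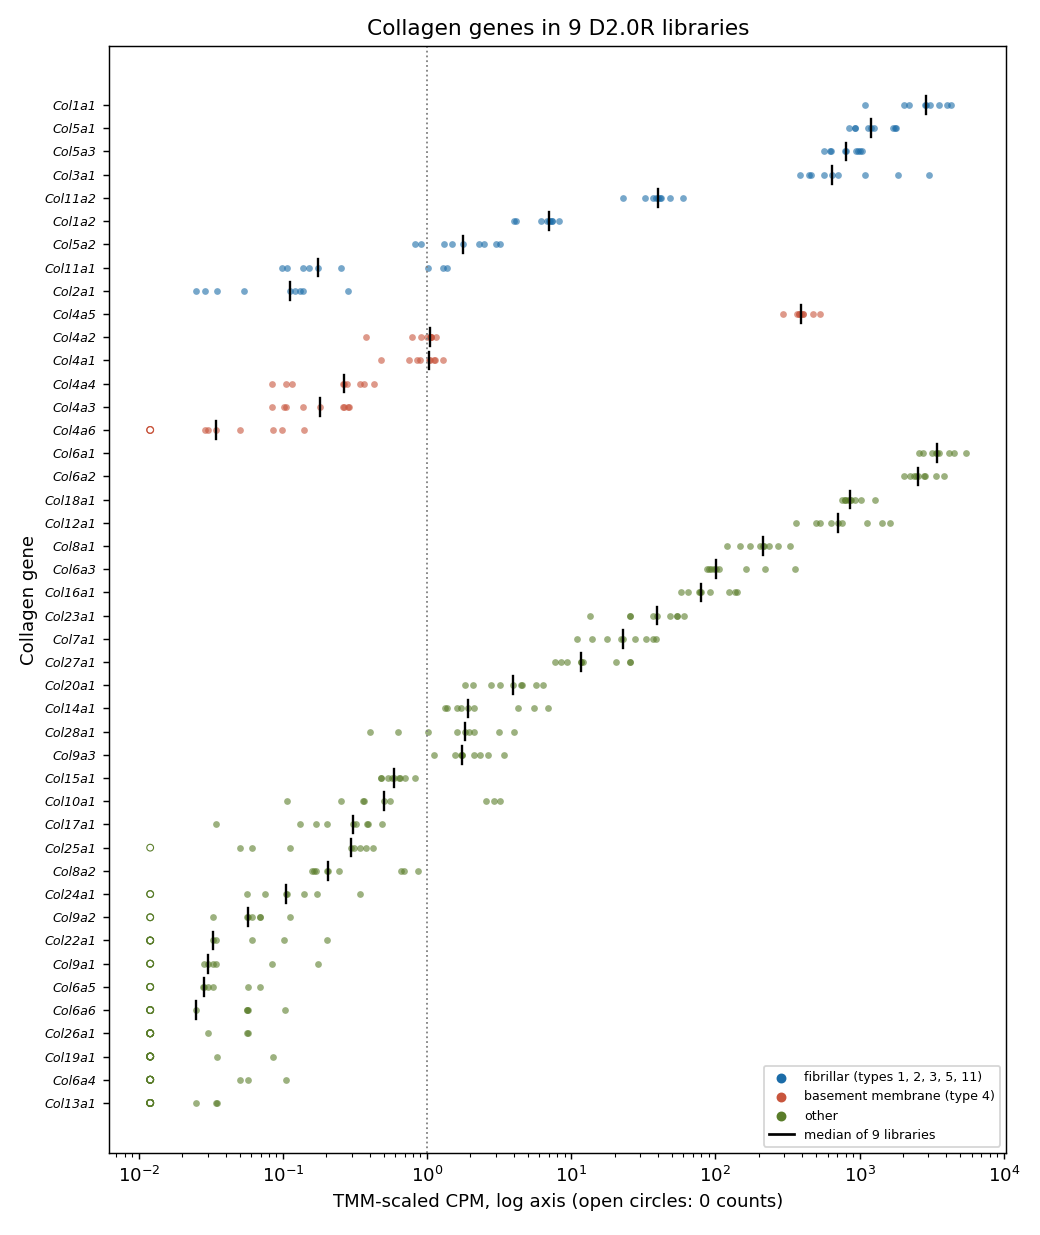
TMM-scaled CPM (log axis) of each of the 44 collagen genes, with 1 point per library, open circles where a library had 0 counts, a black bar at the median of the 9 libraries and a dotted line at 1 CPM. Medians span from 0 CPM for Col13a1 and 1.03 for Col4a1, through 6.96 for Col1a2 and 40.1 for Col11a2, to 395 for Col4a5 and 2908 for Col1a1.

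At the other end, 21 of the 44 members had a mean under 1 CPM and were not tested for differences between libraries. Of these, 12 had 0 counts in at least 1 library, 6 never exceeded 3 counts in any library (Col6a4, Col6a5, Col6a6, Col13a1, Col19a1 and Col26a1), and 3 reached 1 CPM somewhere (Col4a1, Col4a2 and Col11a1). Col2a1, the fibrillar collagen of cartilage, had between 1 and 10 counts. The cartilage collagens Col9a1 and Col9a2 had at most 7 and 4, whereas Col9a3, also of type IX, had 33 to 99 counts and was tested. Col17a1, the hemidesmosome collagen of basal epithelium, reached 0.487 CPM. Every member had at least 1 count somewhere. Where a library had 0 counts, up to 3 counts are within what a count of 0 allows.

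Partner chains were very unequal in fibrillar collagen. Type I collagen is usually a heterotrimer of Col1a1 and Col1a2 chains. Col1a1 (chromosome 11, 94936224 to 94953042, GRCm38, GENCODE M21) had 270 to 584 times the counts of Col1a2 (chromosome 6, 4504814 to 4541544), with a median of 470. The lowest ratio, in library 1, had an exact 95% interval of 225 to 326, and the highest, in library 8, one of 518 to 662. Per kilobase the median ratio was 424, or 889 with merged exons. Col1a2 rested on 116 to 277 counts a library, so it was measured but at a far lower level in each of the 9.

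Type V showed the same inequality in another chain. Col5a3 had 0.354, 0.350 and 0.333 times the counts of Col5a1 in libraries 2, 5 and 8, and 0.706 to 1.07 times in the others. Col5a2, which joins Col5a1 in the common form of type V that nucleates fibrils, had only 17 to 112 counts, and Col5a1 had 506 to 1377 times as many (563 times per kilobase at the median). Col3a1, the next gene to Col5a2 on chromosome 1, had 250 to 937 times the counts of Col5a2. In type XI, Col11a2 had 17.6 times the counts of Col11a1 in library 8 and 420 times in library 4, the value in library 4 resting on 3 counts of Col11a1 with an interval of 143 to 2039. Col8a1, a chain of the short-chain network of vessels and cornea, had 237 to 1438 times the counts of Col8a2, whose count was 3 in its lowest library.

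Type 4 was carried by a single chain. Col4a5 (chromosome X, 141475385 to 141689234), which in tissues pairs with Col4a3 and Col4a4 or with Col4a6, measured 382, 535, 404, 402, 473, 383, 371, 395 and 296 CPM in libraries 1 to 9. Col4a6, its head-to-head neighbour, had 0 to 4 counts. Col4a1 and Col4a2, which form the common basement membrane trimer, had low counts in each library. Col4a1 had 14, 36, 37, 34, 37, 28, 45, 32 and 14 counts in libraries 1 to 9, and Col4a2 had 11, 35, 28, 35, 30, 35, 42, 38 and 17. The ratio of Col4a2 to Col4a1 thus lay between 0.757 and 1.25, while Col4a5 had 328 to 793 times the counts of Col4a1. Both chains were lowest in library 1 by CPM, at 0.378 for Col4a2 and 0.481 for Col4a1. Their exons overlap by 22 bases on opposite strands. Col4a4, a chain of kidney and inner ear, had 10, 4, 13, 8, 3, 14, 11, 3 and 5 counts in libraries 1 to 9, and Col4a3, which shares 5.65% of its exon bases with the opposite-strand C430014B12Rik, had 3 to 10.

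Start regions are printed here for the head-to-head type 4 pairs, whose members were near equal on chromosome 8 (Col4a1 and Col4a2) and far apart in RNA on chromosome X (Col4a5 and Col4a6), and for Col1a2, the low chain of type I. They are RefSeq windows of GRCm38.p6, from 250 bases before to 50 after the start, 5′ to 3′ on the gene's strand. Col1a2 is chr6:4505368-4505667 (plus strand), Col4a1 chr8:11312777-11313076 (minus), Col4a2 chr8:11312555-11312854 (plus), Col4a5 chrX:141475169-141475468 (plus) and Col4a6 chrX:141474027-141474326 (minus). Capitals mark the CCAAT box, the TATA motif TATAAA (no match here) and the GC box GGGCGG on either strand, with no overlap between matches in these windows.
Col1a2: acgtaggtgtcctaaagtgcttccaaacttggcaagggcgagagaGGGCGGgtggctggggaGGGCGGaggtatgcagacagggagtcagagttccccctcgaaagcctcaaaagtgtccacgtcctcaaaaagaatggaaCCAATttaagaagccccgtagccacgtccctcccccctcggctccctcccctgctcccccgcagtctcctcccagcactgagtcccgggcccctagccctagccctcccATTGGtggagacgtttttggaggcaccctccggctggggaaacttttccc
Col4a1: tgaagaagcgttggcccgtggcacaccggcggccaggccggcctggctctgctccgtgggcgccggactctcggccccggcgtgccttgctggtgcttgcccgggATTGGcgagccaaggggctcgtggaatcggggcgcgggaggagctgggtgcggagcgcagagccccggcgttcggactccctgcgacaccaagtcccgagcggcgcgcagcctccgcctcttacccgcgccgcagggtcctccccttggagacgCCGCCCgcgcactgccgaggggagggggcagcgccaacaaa
Col4a2: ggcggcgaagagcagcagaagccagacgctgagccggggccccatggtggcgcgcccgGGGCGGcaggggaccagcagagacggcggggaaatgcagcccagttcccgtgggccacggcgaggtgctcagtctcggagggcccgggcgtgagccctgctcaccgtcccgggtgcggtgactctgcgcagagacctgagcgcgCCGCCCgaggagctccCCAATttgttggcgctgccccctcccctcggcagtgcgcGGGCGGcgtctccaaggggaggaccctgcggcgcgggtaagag
Col4a5: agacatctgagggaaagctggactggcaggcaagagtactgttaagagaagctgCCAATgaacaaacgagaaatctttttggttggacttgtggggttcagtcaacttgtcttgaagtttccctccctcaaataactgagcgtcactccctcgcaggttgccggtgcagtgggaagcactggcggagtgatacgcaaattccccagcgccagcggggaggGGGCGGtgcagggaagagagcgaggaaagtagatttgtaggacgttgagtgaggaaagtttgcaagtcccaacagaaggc
Col4a6: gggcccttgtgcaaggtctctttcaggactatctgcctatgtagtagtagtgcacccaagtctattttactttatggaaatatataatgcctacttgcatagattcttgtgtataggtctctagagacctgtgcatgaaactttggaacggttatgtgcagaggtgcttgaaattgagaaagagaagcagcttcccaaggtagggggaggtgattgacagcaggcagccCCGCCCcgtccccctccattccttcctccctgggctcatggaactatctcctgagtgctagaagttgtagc

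The Col4a1 and Col4a2 start sites lay 21 bases apart and their windows shared 78 bases, with 37 and 33 CpG dinucleotides against a median of 7 in all 32851 windows of the table. Between Col4a6 and Col4a5 the distance was 1343 bases, with 3 and 11 CpG. Col1a2 had 13. Windows were found for 35 of the 44 collagen genes (38 windows), of which 60.5% held GGGCGG, against 35.7% of all windows. CCAAT was in 34.2% and 37.4%, and TATAAA in 13.2% and 13.6%. Col3a1, abundant in these cells, had 0 CpG and a TATAAA. These matches describe letters in a window and draw no link to the RNA levels.

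Type VI differed from these. Col6a2 (chromosome 10, 76595762 to 76623630) followed Col6a1 (76708792 to 76726168) closely, at 0.667 to 0.862 times its counts. Col6a3, the long chain that completes the usual type VI trimer, was low, since Col6a1 had 15.4 to 39.3 times as many counts, and 74.7 times as many per kilobase at the median. Col6a4, Col6a5 and Col6a6, the alternative long chains, had at most 3 counts in any library. Of all the pairs compared, Col6a2 to Col6a1 was the ratio that changed least between libraries (1.29-fold), whereas Col11a1 to Col11a2 changed 23.8-fold and Col3a1 to Col1a1 6.41-fold.

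**Figure D2:**
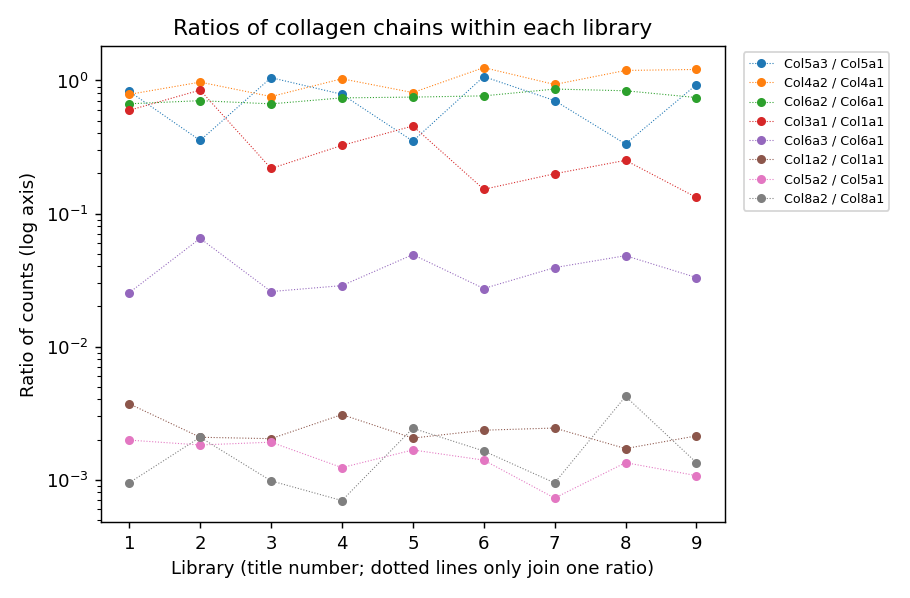
Ratio of the counts of 2 collagen chains in each of the 9 libraries (log axis, not corrected for length), 1 colour per pair. The ratio of Col6a2 to Col6a1 stays between 0.667 and 0.862 and that of Col1a2 to Col1a1 between 0.00171 and 0.00371, while Col5a3 to Col5a1 drops to 0.354, 0.350 and 0.333 in libraries 2, 5 and 8.

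Levels of most tested collagens differed between libraries by 2-fold or more. A chi-square test asked whether a gene's 9 counts varied beyond counting noise, with Benjamini-Hochberg adjustment over all 12328 genes with a mean of at least 1 CPM. A gene was called variable at an adjusted p under 0.05 with a range of at least 2-fold, that is 1 on the log2 CPM scale with a prior count of 2. The p-values measure spread between libraries of unknown kind, which may be technical. All 23 tested members passed the p threshold, as did 11829 genes overall. Of the 23, 19 were called (82.6%), against 27.7% of all genes tested. Those not called, Col6a2, Col18a1, Col5a3 and Col4a5, were abundant members, with medians of 2534, 859, 807 and 395 CPM. The median range was 1.74 for the collagens and 0.67 for all genes tested. Col10a1, among the 19 called, had a median under 1 CPM and entered the test only through 3 high libraries. Its call was therefore tied to its entry and adds nothing to the count. With the range taken between the second highest and the second lowest library, 12 of the 23 were called (52.2%, against 14.7% of all genes tested), and without libraries 2, 5 and 8, an exclusion chosen after seeing the data, 7 of 22 (31.8%, against 12.9% of all genes then tested). In bulk RNA, fewer cells that express a gene and less RNA per cell cannot be told apart.

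**Figure D3:**
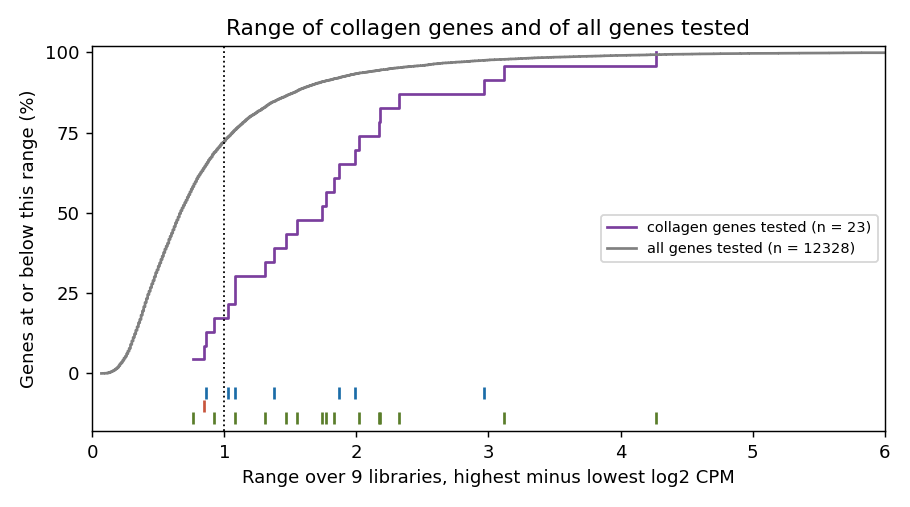
Cumulative share (%) of the 23 tested collagen genes and of all 12328 genes tested whose range over the 9 libraries, in log2 CPM, is at or below the value on the x axis; ticks under the curves mark single collagens (blue fibrillar, red type 4, green other), and the dotted line marks 2-fold. The collagen curve lies to the right, with medians of 1.74 for collagens and 0.67 for all genes.

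Of the 7 fibrillar genes tested, 6 were called. Col1a1 measured 1086, 3549, 2043, 2186, 4040, 3056, 2855, 4316 and 2908 CPM in libraries 1 to 9. Library 8 was thus 3.98-fold above library 1 (95% interval 3.93 to 4.02, counting error only; adjusted p under 1e-300, chi-square test), and the range was 2.12-fold without library 1.

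Col3a1 (chromosome 1, 45311538 to 45349706), the collagen of pliable tissues, had the widest range of the tested fibrillar genes. Its levels in libraries 1 to 9 were 648, 3008, 445, 711, 1837, 464, 569, 1085 and 385 CPM. Libraries 2, 5 and 8 lay above the other 6, and library 2 was 7.82-fold above library 9 (7.64 to 8.01). Without library 2 the range was 4.79-fold.

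Col5a1 had the same 3 libraries on top. It measured 1252, 1766, 929, 1206, 1794, 934, 1142, 1707 and 850 CPM in libraries 1 to 9, and its range of 1.08 on the log2 scale became 0.97 without library 9, which ended the call. Col5a3 was the fibrillar gene not called, with a range of 0.86. In libraries 1 to 9 it measured 1036, 625, 977, 950, 629, 1003, 807, 569 and 790 CPM, and libraries 2, 5 and 8 were here its lowest. The 3 libraries highest in Col5a1 were thus lowest in Col5a3. Antisense transcripts share at most 1.33% of the Col5a1 exon bases and had medians of at most 1.65 CPM.

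Among the low fibrillar genes, Col11a2, a cartilage collagen chain, reached 59.2 CPM in library 6 and had its minimum, 22.7 CPM, in library 8, but the range fell under 2-fold without library 8 (0.86 on the log2 scale). Col1a2 had at most 8.27 CPM (library 5) and at least 4.02 CPM (library 1; adjusted p 1.12e-14, chi-square test), a range under 2-fold without library 5 (0.87). Col5a2 differed 3.87-fold (2.60 to 5.89; adjusted p 1.33e-17, chi-square test), with 3.21 CPM in library 2 against 0.830 CPM in library 7. Counting Col24a1 and Col27a1 as fibrillar gave 7 called of 8 tested.

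Type 4 had 1 tested member, Col4a5, whose range of 0.85 was under 2-fold and which was not called. It would pass at 1.5-fold.

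Of 15 tested members of the other types, 13 were called, Col10a1 among them. Type VI was highest in library 2. Col6a1 measured 4188, 5447, 3574, 3423, 4499, 3191, 2581, 3404 and 2733 CPM in libraries 1 to 9. The range of 1.08 on the log2 scale lost the call without library 2 (0.81) or library 7 (0.99). Col6a2, with 2799, 3842, 2385, 2534, 3376, 2445, 2225, 2847 and 2035 CPM in libraries 1 to 9, was not called (0.92). Col6a3 ranged more widely, with 354, 221 and 164 CPM in libraries 2, 5 and 8 and 87.1 to 106 in the other 6. Its range was 4.07-fold (3.91 to 4.24), and 2.56-fold without library 2.

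Col12a1 and Col14a1, related fibril-associated collagens, went the same way at very different levels. Col12a1 measured 706, 1627, 761, 528, 1441, 630, 360, 1119 and 498 CPM in libraries 1 to 9. Col14a1 had 6.90, 5.48 and 4.25 CPM in libraries 2, 5 and 8 and 1.34 to 2.10 in the others. Their ranges were 4.53-fold (4.44 to 4.61) and 5.16-fold (3.73 to 7.29), with no overlap between libraries 2, 5 and 8 and the other 6.

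Col18a1 had the narrowest range of the tested collagens (0.76) and was not called. Its values in libraries 1 to 9 were 1271, 790, 859, 1026, 828, 793, 870, 923 and 751 CPM, so that library 1 was highest and libraries 2 and 5 did not stand out. Col8a1, Col16a1 (another fibril-associated collagen) and Col7a1 (the anchoring fibril collagen) had their maximum in library 2 and their minimum in library 9, with 331 against 120, 142 against 57.3 and 39.0 against 10.9 CPM. Col23a1, a transmembrane collagen, differed 4.52-fold, with 60.7 CPM in library 2 against 13.4 CPM in library 1, or 2.39-fold without library 1. Col27a1 had 20.4, 25.7 and 25.6 CPM in libraries 2, 5 and 8, against 7.67 to 12.1 CPM elsewhere.

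By point value the 2 widest ranges were in rare members. The interval of the narrower, Col28a1 (5.89 to 17.8), spans the 7.82-fold range of the abundant Col3a1, so their order is open. Col10a1, the collagen of hypertrophic cartilage, measured 0.550, 3.21, 0.254, 0.361, 2.93, 0.365, 0.503, 2.55 and 0.107 CPM in libraries 1 to 9. Library 2 was 30.1-fold above library 9, where the gene had 2 counts (interval 8.13 to 251; adjusted p 1.89e-67, chi-square test). On the log2 scale with the prior count the range was 4.27, and 3.39 without library 9. Without library 2 or library 5 the gene fell below the limit for testing. It shares 18 exon bases with Nt5dc1 on the other strand, and Nt5dc1 did not follow it, at 10.6, 7.85 and 7.30 CPM in libraries 2, 5 and 8. Col28a1, a von Willebrand factor domain collagen, measured 1.62, 3.98, 1.83, 0.624, 3.14, 1.94, 0.402, 2.10 and 1.01 CPM, a 9.90-fold range (5.89 to 17.8; adjusted p 3.50e-36, chi-square test). Col20a1 and Col9a3 were instead highest in library 4 (6.34 CPM) and library 1 (3.40 CPM), and each was lowest in library 8, at 1.82 and 1.12 CPM. Of the Col20a1 exon bases 1.54% are shared with the same-strand BX649560.1, which was lowest in libraries 2, 5 and 8, at 6.50, 7.19 and 6.13 CPM against 9.35 to 11.5 CPM. Col20a1 itself had 3.18, 2.09 and 1.82 CPM there, and 2.78 CPM in library 9. The part of BX649560.1 in the Col20a1 values was not tested. Of the Col9a3 exon bases 6.07% are shared with Tcfl5, which had a median of 0.

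**Figure D4:**
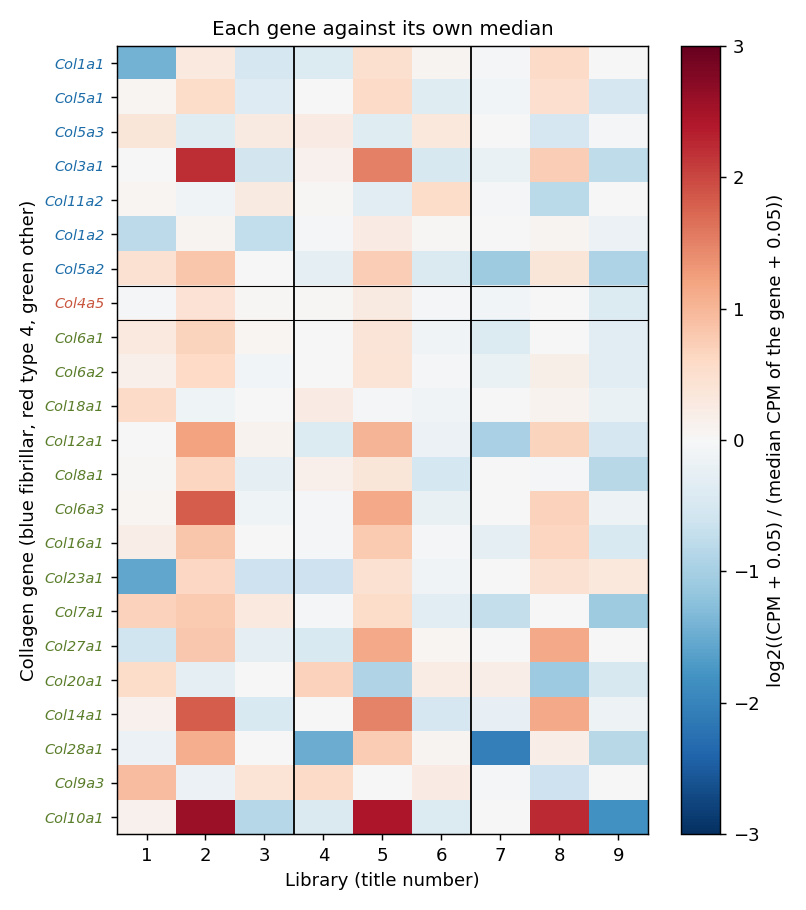
Each tested collagen gene (rows, blue names fibrillar, red type 4, green other) in each library (columns, vertical lines between title numbers 3 and 4 and between 6 and 7), as log2 of CPM plus 0.05 minus the gene's own median. Columns 2, 5 and 8 are the reddest, as for Col3a1 at 3008, 1837 and 1085 CPM, and blue in those columns for Col5a3 at 625, 629 and 569 CPM.

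Counting title numbers in runs of 3 (1 to 3, 4 to 6 and 7 to 9), the middle number was the highest of its run in every run for 17 of the 23 tested members (73.9%), against 31.5% of all genes tested. These were Col1a1, Col1a2, Col3a1, Col5a1, Col5a2, Col4a5, Col6a1, Col6a2, Col6a3, Col7a1, Col10a1, Col12a1, Col14a1, Col16a1, Col23a1, Col27a1 and Col28a1. Col5a3, Col11a2, Col9a3 and Col20a1 were lowest at the middle number in every run (17.4%, against 27.2% of all genes). In 13 members libraries 2, 5 and 8 all lay above the other 6 (56.5%, against 21.3% of all genes), and in Col5a3 and Col11a2 all below (8.70%, against 18.3%). Without Col10a1, whose place was set by the limit for testing, the middle number was highest throughout in 16 of 22 (72.7%), and libraries 2, 5 and 8 lay above the others in 12 of 22 (54.5%). Of the 21 members under the limit for testing, Col8a2, Col11a1 and Col17a1 had libraries 2, 5 and 8 above the other 6 and Col4a4 had them below. Col17a1 had 17, 11 and 14 counts in these libraries against at most 10 elsewhere, and Col4a4 had 4, 3 and 3 against at least 5. Such small counts leave the order open to counting noise. No share over all genes under the limit was taken, so these members are not read as part of the pattern. By class, the count of tested members highest at the middle number was 5 of 7 fibrillar, 1 of 1 type 4 and 11 of 15 other. The pattern was not particular to collagens. Of the genes described below that modify, secrete and crosslink collagen, 17 of 26 tested were highest at the middle number in every run, and of collagen receptor genes 4 of 7. Libraries 2, 5 and 8 all lay above the other 6 in 10 of 26 and 3 of 7.

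Runs of title numbers separated the collagens little. Col6a1 and Col7a1 had libraries 1 to 3 wholly above 7 to 9 (8.70%, against 10.7% of all genes), close to the background. No tested member had libraries 7 to 9 wholly above 1 to 3 (0 of 23, against 10.3%), and none had libraries 4 to 6 wholly apart from a neighbouring run. Among all genes tested, 3.66% had libraries 4 to 6 above 1 to 3 and 5.07% below, 4.17% had 4 to 6 above 7 to 9 and 4.33% below. Last numbers of a run (3, 6 and 9) were the lowest of their run throughout for 7 members (30.4%, against 13.4%), among them Col3a1, Col5a1, Col6a2 and Col6a3, and first numbers (1, 4 and 7) for Col1a1, Col12a1, Col23a1 and Col28a1 (17.4%, against 10.9%). Libraries 3, 6 and 9 lay wholly below the other 6 in Col3a1, Col5a1, Col6a3 and Col8a1 (17.4%, against 4.14%). No tested member had libraries 1, 4 and 7 wholly above or below the other 6 (0 of 23, against 6.85% and 4.16%), or libraries 3, 6 and 9 wholly above (0 of 23, against 4.19%). Col20a1 was highest at every first number (1 of 23, against 16.7%) and Col11a2 at every last number (1 of 23, against 10.1%). Title numbers are names and not groups, so no test was run between them.

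Collagens held 1.39%, 2.27%, 1.29%, 1.32%, 2.03%, 1.33%, 1.18%, 1.73% and 1.16% of the counts of libraries 1 to 9. The Wilson 95% interval was 2.26% to 2.27% for library 2 and 1.16% to 1.17% for library 9. Libraries 2, 5 and 8 stood above the other 6. The fibrillar share went with them, at 0.919%, 0.858% and 0.783% in these and 0.407% to 0.548% in the others, whereas the share of the other types in library 8 (0.904%) lay below that in library 1 (0.946%). Type 4 held 0.0298% to 0.0549%. The 5 markers of dividing cells summed to 157, 251 and 364 CPM in libraries 2, 5 and 8 and to 18.0 to 89.3 CPM in the others. The 5 luminal markers summed to 413, 514 and 798 CPM, against 226 to 381 CPM. Of these luminal markers Krt8 alone set the 3 libraries apart, at 310, 414 and 677 CPM against at most 288 CPM. Krt18 was highest in library 1 (154 CPM), with 92.0, 88.7 and 108 CPM in libraries 2, 5 and 8, and Cdh1 overlapped. The sum of the 8 fibroblast markers overlapped, with 1453, 1175 and 893 CPM against 483 to 946 CPM. Fap and Pdgfrb nevertheless set the 3 libraries apart, at 49.8, 45.7 and 37.5 CPM against at most 24.0 CPM and at 530, 451 and 386 CPM against at most 376 CPM. Pdgfra overlapped, with 468 CPM in library 8 against 548 CPM in library 1. The sum of the 4 basal markers also overlapped, at 6.62, 6.04 and 4.78 CPM against 1.01 to 5.26 CPM. Chondrocyte and bone markers summed to 115, 99.8 and 98.2 CPM in these 3 libraries, below the 124 to 158 CPM of the others, and leukocyte markers to 4.78, 2.9 and 2.88 CPM, below 6.46 to 11.1 CPM. Sox9 and Runx2 made up nearly all of the first sum. Acan and Bglap had 3 and 1 counts over the 9 libraries, and Sp7 was instead highest in library 8 (1.09 CPM). Cd68 made up nearly all of the leukocyte sum, as Ptprc, Cd3e and Itgam had 11, 2 and 14 counts over the 9 libraries. These sums therefore describe single genes more than cell types. The part of the markers in the collagen differences was not tested.

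**Figure D5:**
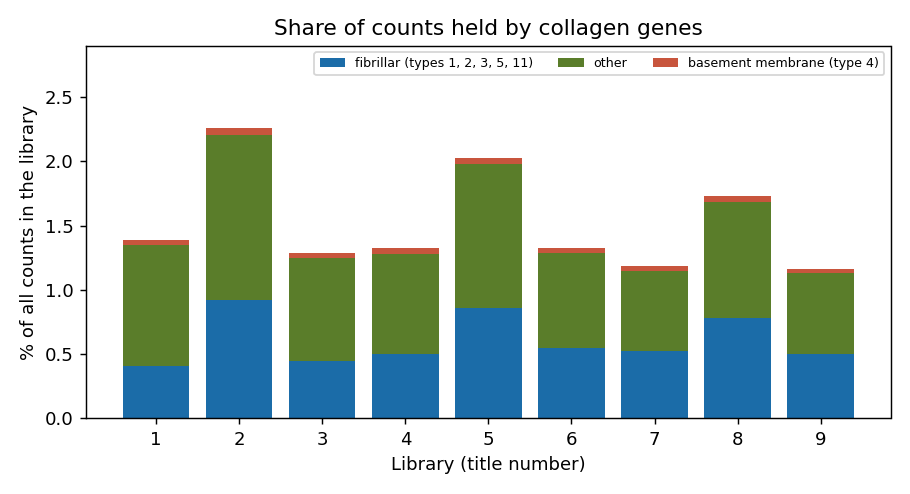
Share of all counts of a library (%, bars from 0) held by fibrillar, other and type 4 collagens, stacked, in each of the 9 libraries. Bars of libraries 2, 5 and 8 reach 2.27%, 2.03% and 1.73%, and the other 6 lie between 1.16% and 1.39%.

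Genes that modify, secrete and crosslink collagen were read by the same rule. Of 33 listed, 26 were tested and 12 called (46.2%, against 27.7% of all genes). P4hb, a subunit of prolyl hydroxylase, had 714 to 935 CPM, and Mia3, which loads procollagen for export, 129 to 148 CPM, and neither was called. Calls were made for Plod2, a lysyl hydroxylase (2.57-fold), for the prolyl 3-hydroxylase family members P3h2, P3h3 and P3h4 (2.99-, 3.02- and 2.81-fold) and for the chaperone Fkbp10 (3.76-fold). Serpinh1, the collagen chaperone HSP47, had 1327 CPM in library 8 against 743 CPM in library 9 and was not called. Pcolce, an enhancer of C-propeptide cleavage, was called, at 564, 1346, 754, 727, 1224, 911, 808, 1124 and 793 CPM in libraries 1 to 9, though not without library 1 (0.89 on the log2 scale).

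P4ha3, a catalytic prolyl hydroxylase subunit, had 16.4, 21.5 and 22.7 CPM in libraries 2, 5 and 8 and 1.58 to 2.67 CPM in the others, without overlap, while the ranges of P4ha1 and P4ha2 were 1.63- and 1.55-fold. The crosslinking genes Loxl3 and Pxdn had the same 3 libraries highest, at 304, 316 and 320 CPM and at 315, 318 and 347 CPM, against at most 191 and 161 CPM in the others. Pxdn, which crosslinks type 4, was thus at 133 CPM or more in every library. Lox, the best known crosslinking enzyme of fibrils, reached only 0.206 CPM. Loxl4 differed in order, with its maximum, 11 CPM, in library 1 against 2.94 CPM in library 9. Adamts14, an N-propeptide protease, had 14 CPM in library 8 against 2.88 CPM in library 3, a range that was 2.87-fold without library 3. Tll1, a C-propeptide protease, had the widest fitted range of this list, with 3.58 CPM in library 2 against 0.0534 CPM (1 count) in library 9. The ratio of 67.1 has an interval of 11.8 to 2671, which overlaps that of P4ha3 (10.6 to 19.7). Without library 1 or library 2 Tll1 fell below the limit for testing.

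Of 10 collagen receptor genes 7 were tested and 4 called (57.1%, against 27.7% of all genes). Itga11, the integrin chain that binds fibrillar collagen, stood at 31.2, 118, 22.5, 17.3, 96.6, 12.4, 7.01, 56.0 and 4.80 CPM in libraries 1 to 9, a 24.6-fold range. Itga1, another collagen-binding integrin chain, had 76.7, 68.1 and 41.5 CPM in libraries 2, 5 and 8 and 10.1 to 28.7 CPM in the others, with a 4.78-fold range without library 7. In both, libraries 2, 5 and 8 lay above the other 6. Their shared partner Itgb1 lay between 1327 and 1539 CPM. The receptor kinase Ddr2 was not called (0.91), but it had 470, 463 and 443 CPM in libraries 2, 5 and 8, all below the 688 to 834 CPM of the other 6. Mrc2, an endocytic collagen receptor, and Itga10 passed 2-fold narrowly (1.07 and 1.08). Without library 2 the range of Mrc2 was 0.79. Itga10 had a range of 0.86 without library 3, lost the call on its adjusted p without library 4, and fell below the 1 CPM limit without library 3, 5 or 7. Itga2, Gp6 and Lair1, the last a leukocyte receptor, stayed under 1 CPM.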

How the data were processed

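The data were 1 gene table that the authors deposited, whose values are expected counts from RSEM in whole numbers without normalisation. It has 55492 rows, and 5 reporter or Cre rows with 0 counts were left out. Tools named in the submitters' processing notes were STAR 2.7.8a, RSEM 1.3.3, cutadapt 2.3 and FastQC 0.11.8, with GRCm38 as the build. The annotation and any use of strand are not stated. RSEM splits reads between similar genes, and without strand overlapping genes cannot be told apart.

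Each of the 9 columns matched 1 sample title, and 0 libraries could be given a group. TMM factors came from edgeR 4.0.16 in R 4.3.3. The chi-square dispersion test (8 degrees of freedom, scipy 1.17.1), the 1 CPM limit and the 2-fold rule are given with the results. On simulated counts for the 12328 genes, it called 100 of 100 genes changed 4-fold in 1 library and 2 of 12128 unchanged genes. Apart from the planted changes, the simulated counts held counting noise alone, which is what the test takes for granted. The simulation therefore checks the code and cannot say how often other variation between libraries leads to a call. The chi-square test was used in place of a quasi-likelihood test because there is no group coefficient. Intervals are exact conditional 95% intervals, or Wilson for shares, and cover counting error only. PCR duplicates cannot be recognised. Gene positions, exons and lengths (the transcript with the longest coding sequence) are from GENCODE M21 on GRCm38, and promoters from RefSeq. Members, lists and alternatives were chosen with earlier results of these data known. Values in all libraries are given for the 4 members of highest mean CPM and the 2 of widest range in each class. Of each list the 4 of widest range and the 2 of highest mean are named, and any further gene was picked with its values in view.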

Additional observations from a re-analysis of the deposited data

How the results depend on the processing

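Scaling by RLE size factors or by totals alone, a prior count of 0.5 and the edgeR filter moved none of the counts or medians by more than 1.5-fold. With no filter 6412 of 27105 genes were called. Between the second highest and second lowest library, 12 collagens, 2 of them fibrillar, 2 receptors and 1815 of 12328 genes (14.7%) were called, and the collagens' median range was 1.08. At 1.5-fold, Col4a5 gave 1 type 4 call, with 19 assembly genes and 7047 of all genes. Without libraries 2, 5 and 8, an alternative added after seeing the data, the calls were 7 collagens (2 fibrillar, 5 other), 5 assembly genes and 1575 of all genes, with a median collagen range of 0.79. The cause was not tested. Leaving out each library in turn gave 17 to 19 collagens called, 5 to 6 fibrillar, 11 to 13 other, 10 to 12 assembly genes, 3 to 4 receptors, 3070 to 3374 of all genes, and a median collagen range of 1.31 to 1.75. Of 364 repeats for single collagens, 341 kept their call or its absence and 23 lost it. In many of these repeats a gene's highest and lowest libraries stayed in, so its range hardly moved and the call was bound to stay. Settings in which a gene was not tested were left out of the 364. This was so for Col10a1 with the edgeR filter, without library 2, without library 5, and without libraries 2, 5 and 8. Low counts limit Col1a2, Col5a2, Col4a1 and Col4a2. No paired analysis was possible because no library has a group.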

Other observations

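Values of the libraries, which no label puts in a group, fell apart in the collagen share of counts. Sorted, the widest gap (0.335 percentage points) lay between 1.39% in library 1 and 1.73% in library 8, with libraries 2 (2.27%), 5 (2.03%) and 8 above it and 3 (1.29%), 4 (1.32%), 6 (1.33%), 7 (1.18%) and 9 (1.16%) below. For fibrillar genes alone the widest gap separated the same libraries, between 0.548% in library 6 and 0.783% in library 8. For the other types it lay between 0.946% in library 1 and 1.12% in library 5, with 2 libraries above it.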
